A study of Mus musculus with 20 samples.

Results

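The genes described here encode the HIRA histone chaperone complex and its cargo, histone H3.3. They are Hira, Ubn1, Ubn2, Cabin1 and Asf1a, for the chaperone, and H3f3a and H3f3b, for the histone. They were chosen by symbol in the gene count table, and 7 of its 55421 genes are members. All 7 passed the filter of at least 10 counts in total, as did 22867 genes of the table. RNA-seq of poly(A) RNA was performed on 20 livers of wildtype C57BL/6 mice labelled female, 5 in each of 4 groups. Every mouse received, at 6 months of age, an AAV8 vector in which the Tbg promoter drives saCas9, a Cas9 nuclease, and a U6 promoter drives a guide RNA. The guide was directed at Hira in the HIRA arm and at Rosa26, a locus commonly used as a neutral target, in the control arm, and livers were taken 3 weeks or 6 months later. The controls therefore also carried the vector, the nuclease and a guide. Tbg is active in hepatocytes, so other liver cells should keep an uncut Hira gene and contribute its transcript to the bulk RNA.

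HIRA is a chaperone that places H3.3 into chromatin without DNA replication, mainly at active genes. UBN1 and UBN2 are alternative ubinuclein subunits that bind H3.3 directly, CABIN1 is a further subunit, and ASF1A hands H3.3 with H4 to the complex. In a tissue that divides little, such as adult liver, this route replaces histones that chromatin loses, and H3.3 is made from a pair of ordinary, polyadenylated genes rather than from the clustered H3 genes that cells transcribe when they replicate DNA.

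H3f3a and H3f3b encode the same protein in different letters. Over 408 coding bases without the stop codon, the GENCODE M21 transcripts of these genes differed at 95 positions and were 76.7% identical. Codons 85 to 92, counted with the first ATG as 0, are shown because this stretch separates H3.3 from the replication-dependent H3 genes. Capitals mark codons 87, 89 and 90, at which the encoded residue differs between the H3.3 genes and the clustered genes shown. All are on the minus strand of GRCm38, and all are written 5′ to 3′ as coding strand.
H3f3a, chr1:180810120-180810143: cagagtGCAgctATTGGTgctttg
H3f3b, chr11:116023628-116023651: caaagtGCAgccATCGGTgccctt
Hist1h3a, chr13:23762075-23762098: cagagcTCGgccGTCATGgctctg
Hist2h3c2, chr3:96238663-96238686: cagagcTCGgccGTCATGgcgctg

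The promoters of the H3.3 genes also differ, and they are shown because these genes encode the same protein but are transcribed from separate promoters. Each runs from 250 bases before to 50 bases after the RefSeq start (GRCm38.p6, minus strand). Capitals mark CCAAT and TATAAA on either strand.
H3f3a, chr1:180813556-180813855: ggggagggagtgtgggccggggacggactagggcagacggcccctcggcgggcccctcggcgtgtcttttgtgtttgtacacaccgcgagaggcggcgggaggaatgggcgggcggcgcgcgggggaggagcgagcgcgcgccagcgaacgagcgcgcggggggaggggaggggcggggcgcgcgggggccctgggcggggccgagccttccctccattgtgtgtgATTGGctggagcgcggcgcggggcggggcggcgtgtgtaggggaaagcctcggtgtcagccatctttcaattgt
H3f3b, chr11:116024455-116024754: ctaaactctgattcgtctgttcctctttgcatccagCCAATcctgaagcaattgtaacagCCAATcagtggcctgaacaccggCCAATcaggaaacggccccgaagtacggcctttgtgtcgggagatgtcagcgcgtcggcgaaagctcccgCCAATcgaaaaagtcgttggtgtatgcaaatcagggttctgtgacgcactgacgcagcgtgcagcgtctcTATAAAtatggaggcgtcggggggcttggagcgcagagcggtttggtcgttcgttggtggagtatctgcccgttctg
The H3f3a promoter was 74% G and C, with 39 CG dinucleotides, and the H3f3b promoter 55%, with 24, against a median of 52.7% over 32851 promoters of this length. H3f3b held 4 copies of CCAAT and 1 of TATAAA. H3f3a held 1 copy of CCAAT and none of TATAAA, but 6 of GGGCGG, the core letters of a GC box. Of all promoters, 37.4% held CCAAT, 1.06% held it at least 4 times, 13.6% held TATAAA, 35.7% held GGGCGG and 5.49% held GGGCGG at least 4 times. These are matches of letters and not tests of binding.

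Depth was even across the series, with 19916430 to 24079736 counts per library. The submitters describe the 5 replicates of a group as independent, and no pair of replicates within a group agreed within sampling noise. Replicate 5 of the HIRA group at 6 months went against its label, with 9 counts of Xist, the transcript of the inactive X chromosome, against 6286 to 8436 in the other 19 libraries, and 2041 summed counts of the Y-linked genes Ddx3y, Eif2s3y, Kdm5d and Uty against 0 to 13. Values without this library are given beside the results that it moved most. Hepatocyte markers were abundant, and the 7 on the list, among them Alb, Apoa1 and Ttr, summed to 10.2% to 16.8% of the counts in a library. Of the markers of cholangiocytes, stellate cells, Kupffer cells, endothelial cells and lymphocytes, none was at 0 in all libraries, so the livers also held RNA of these cells. In bulk tissue, fewer cells of a type cannot be told apart from less RNA per cell.

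H3f3a was the member that edgeR called. It was higher with the HIRA guide at both times, by 30.4% at 3 weeks and 25.3% at 6 months, while its sister gene H3f3b and the 5 chaperone genes passed the test at neither time. This was 1 of 7 members at 3 weeks, where 0.197% of all genes tested were called in either direction, and 1 of 7 at 6 months, where 1.31% were called. With the guide effect averaged over both times, 1 of 7 members was called, again H3f3a, against 2.85% of all genes. A gene is called at an adjusted p under 0.05 in the quasi-likelihood test of edgeR, adjusted over all 22867 genes. The median log2 fold change over the members was 0.0022 at 3 weeks and 0.12 at 6 months, against -0.00594 and 0.0293 over all genes.

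**Figure D1:**
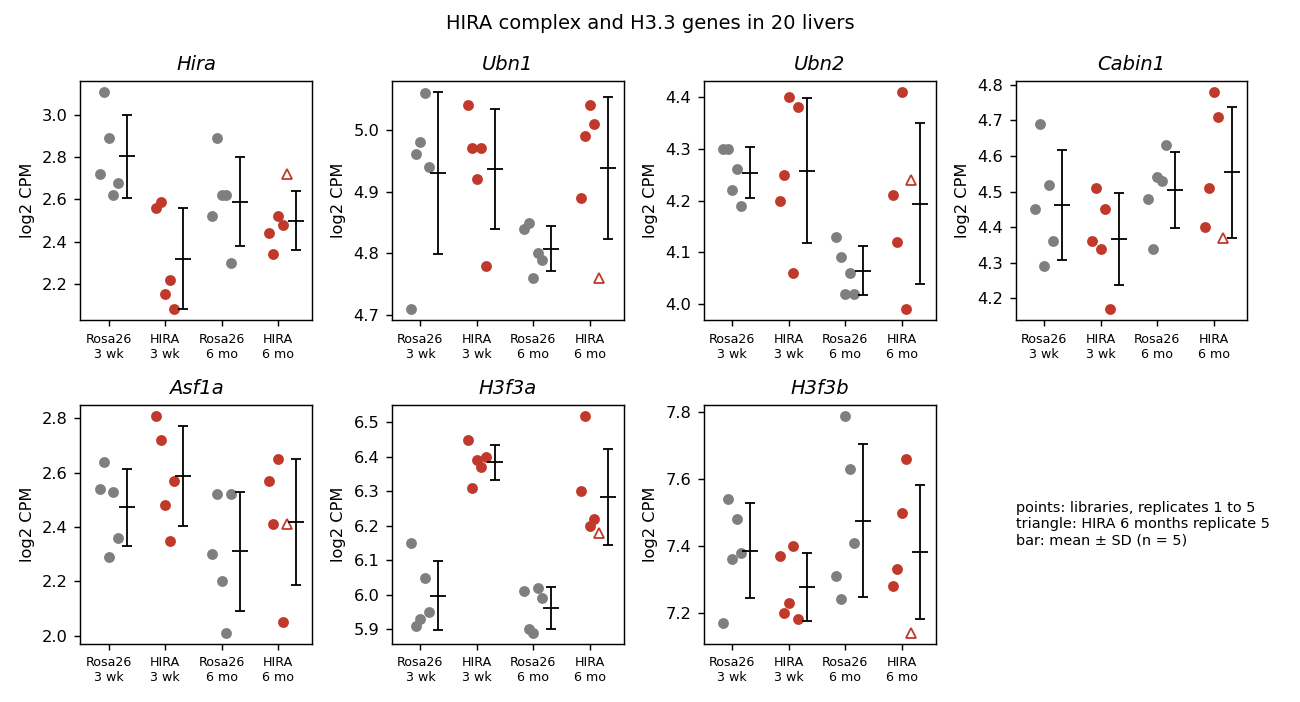
Log2 CPM (vertical axes, each panel with its own range) of the 7 genes in the 20 libraries, by group; points are replicates 1 to 5, the open triangle is HIRA 6 months replicate 5, and bars are the mean ± SD of 5 libraries. All H3f3a points of the HIRA arm lie above all those of the Rosa26 arm, and Hira separates at 3 weeks in the other direction.

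Hira, the targeted gene and the scaffold of the complex (ENSMUSG00000022702.16, chromosome 16, 18877037 to 18970309, plus strand), was low in number of counts, with 87 to 171 counts per library. At 3 weeks, replicates 1 to 5 held 128, 171, 158, 134 and 136 counts with the Rosa26 guide. They held 126, 127, 90, 104 and 87 with the HIRA guide. On the scale of CPM, counts scaled to the same TMM-adjusted library size, all 5 HIRA libraries (4.15 to 5.95) were below all 5 controls (6.04 to 8.54). This gave a log2 fold change of -0.48 ± 0.14 (SE; 95% CI -0.77 to -0.19), or 0.716-fold, and the adjusted p of 0.197 did not pass, although the unadjusted p was 0.00219. Hira and H3f3a were the 2 of 7 members whose groups did not overlap at 3 weeks, a separation seen in 2.69% of all genes.

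At 6 months the Hira values of the arms overlapped. The Rosa26 replicates 1 to 5 held 132, 157, 141, 131 and 105 counts, and the HIRA replicates held 136, 109, 136, 112 and 128. Its log2 fold change there was -0.10 ± 0.14 (95% CI -0.39 to 0.19; adjusted p = 0.794), and -0.16 ± 0.14 without HIRA replicate 5 (adjusted p = 0.614). Leaving out each of the 20 libraries in turn gave -0.17 to -0.02, the last of these without Rosa26 replicate 2, and -0.06 without HIRA replicate 2. A change of the guide effect between the times was not called for Hira (difference of the log2 fold changes 0.38, 95% CI -0.02 to 0.79, adjusted p = 0.781). Averaged over both times the log2 fold change was -0.29 ± 0.10 (95% CI -0.49 to -0.09; adjusted p = 0.117), and -0.32 ± 0.10 without HIRA 6 months replicate 5 (adjusted p = 0.0721). DESeq2 called this average, with a log2 fold change of -0.30 and an adjusted p of 0.0425, where it called 5.55% of all genes. A cut by Cas9 can shift the reading frame and need not remove the transcript, so the counts check transcript level and not the loss of the protein. For the protein, the study reports a western blot in which HIRA was lost with the HIRA guide against the Rosa26 guide. Its text does not name the time of that blot.

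Part of the Hira locus is annotated more than once. A read-through gene model, Gm28539, lies on the same strand and shares 2778 exon bases with Hira, which is 44.7% of the exon bases of Hira. Gm28539 had 0 counts in all 20 libraries. How reads that fit both models were counted is not given in the sources used here. The FPKM values, which were deposited beside the counts, gave a like order at 3 weeks. Hira stood at 4.45, 4.80, 6.10, 4.35 and 4.11 FPKM in the Rosa26 replicates and at 3.02, 3.37, 2.60, 2.40 and 3.03 in the HIRA replicates, again without overlap. On log2(FPKM + 1) with limma the difference was -0.57 ± 0.13 at 3 weeks (adjusted p = 0.0747) and 0.03 ± 0.13 at 6 months (adjusted p = 0.945). The direction at 6 months rested on HIRA replicate 5, the library against its label. Without it the FPKM difference was -0.07 ± 0.11 at 6 months (adjusted p = 0.787), the direction of the counts, and Hira passed on FPKM at 3 weeks (-0.57, adjusted p = 0.0324) and on average (-0.32, adjusted p = 0.033), where 0.365% and 3.11% of all genes were called.

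Neither ubinuclein gene passed the test at either time. Ubn1 (ENSMUSG00000039473.8, chromosome 16, 5050057 to 5086289) had 516 to 793 counts per library, and its log2 CPM was 4.93 ± 0.13 and 4.93 ± 0.10 (SD, n = 5) in the Rosa26 and HIRA groups at 3 weeks and 4.81 ± 0.04 and 4.94 ± 0.11 at 6 months. The 95% CI of its log2 fold change ran from -0.15 to 0.15 at 3 weeks and from -0.01 to 0.28 at 6 months (adjusted p = 0.997 and 0.374). Without HIRA 6 months replicate 5, Ubn1 at 6 months was 0.18 ± 0.07 higher and its groups no longer overlapped, with an unadjusted p of 0.0224 and an adjusted p of 0.199 that did not pass. Ubn2 (ENSMUSG00000038538.17, chromosome 6, 38433950 to 38524825), with 322 to 509 counts, had intervals from -0.16 to 0.17 and from -0.03 to 0.30 (adjusted p = 0.997 and 0.423). The spread of these genes within groups was small, with a pooled SD of log2 CPM of 0.101 for Ubn1 and 0.109 for Ubn2 against a median of 0.204 over the 12903 genes with a mean of at least 1 CPM.

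Cabin1, whose product is also known as an inhibitor of calcineurin (ENSMUSG00000020196.10, chromosome 10, 75646112 to 75764341), had 376 to 661 counts. Its log2 fold change was -0.10 ± 0.10 at 3 weeks and 0.06 ± 0.09 at 6 months (adjusted p = 0.867 and 0.837), and the groups overlapped at both times. Without HIRA 6 months replicate 5 the 6-month value was 0.10 ± 0.10 (adjusted p = 0.642). On FPKM these directions turned, to 0.07 and -0.15 (-0.09 without replicate 5), and none passed. Asf1a (ENSMUSG00000019857.7, chromosome 10, 53596757 to 53609225) had 83 to 150 counts and was 0.12 ± 0.14 higher at each time (adjusted p = 0.888 and 0.751). Asf1a shares its locus with Mcm9, a gene on the opposite strand that holds 1748 of the exon bases, 48% of those of Asf1a, and had 2246 counts in all libraries against 2360 for Asf1a. Whether the counting used the strand is not stated, so reads of these genes may not be told apart. For Ubn1, Ubn2, Cabin1 and Asf1a, the 95% CIs of the log2 fold change at both times lay between -0.29 and 0.40.

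H3f3a (ENSMUSG00000060743.12, chromosome 1, 180800832 to 180813943, minus strand) had 1206 to 2015 counts per library. At 3 weeks its CPM was 70.9, 60.2, 60.7, 66.3 and 61.7 in Rosa26 replicates 1 to 5. It was 87.1, 79.3, 83.8, 82.5 and 84.4 in the HIRA replicates. The lowest HIRA library exceeded the highest control, and the SD of log2 CPM was 0.10 in the controls and 0.05 in the HIRA group. The log2 fold change was 0.38 ± 0.07 (95% CI 0.23 to 0.53), or 1.30-fold (1.18 to 1.45), with an adjusted p of 0.0309. By its p-value H3f3a was the 19th of 22867 genes.

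At 6 months H3f3a CPM was 64.5, 59.5, 59.2, 64.9 and 63.7 in the Rosa26 replicates. It was 78.8, 91.5, 73.3, 74.4 and 72.5 in the HIRA replicates. The groups again did not overlap, and H3f3a was the 1 member of which this was so at 6 months, against 3.15% of all genes. Without HIRA replicate 5 it was so for 2 members, H3f3a and Ubn1, against 5.69% of all genes. HIRA replicate 2 was the highest of the 20 libraries and replicate 5, the library against its label, the lowest of its group. The log2 fold change was 0.32 ± 0.07 (95% CI 0.18 to 0.47), or 1.25-fold, with an adjusted p of 0.0292, and 0.35 ± 0.07 without replicate 5 (adjusted p = 0.0204). The guide effects at the times differed by -0.06 (95% CI -0.27 to 0.15; adjusted p = 0.962).

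Averaged over both times, H3f3a was 0.35 ± 0.05 higher (95% CI 0.25 to 0.46; adjusted p = 0.00102; 0.000597 without HIRA 6 months replicate 5) and stood 13th of 22867 genes by p-value. Its pooled SD within groups was 0.095, and 3.91% of the 12903 genes with a mean of at least 1 CPM had a smaller one. The calls at single times were near the threshold. At 3 weeks the adjusted p rose to between 0.0612 and 0.103 when Rosa26 replicate 2, 3, 4 or 5 or HIRA replicate 1, 4 or 5 was left out. At 6 months it rose to between 0.0554 and 0.0699 without Rosa26 replicate 1, 2, 3 or 4 or HIRA replicate 1 or 2. It rose to 0.155 when the 6-month groups were fitted alone, a fit that called 0 of 20832 genes. The average kept its call in all 20 fits that each left out a library, with adjusted p-values from 0.000597 to 0.0028.

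**Figure D2:**
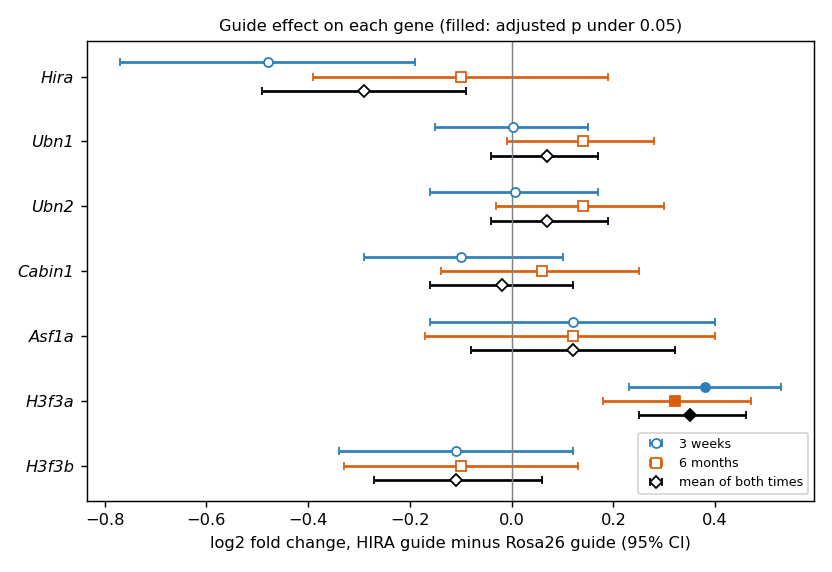
Log2 fold change of the HIRA guide against the Rosa26 guide (horizontal axis) with its 95% CI for each gene at 3 weeks, at 6 months and averaged over both times; filled symbols passed an adjusted p of 0.05 in edgeR. H3f3a lies at 0.38, 0.32 and 0.35 and is the one gene with filled symbols, while the intervals of H3f3b include 0.

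H3f3b (ENSMUSG00000016559.14, chromosome 11, 116021912 to 116027962, minus strand) passed no test. At 3 weeks its CPM was 144, 185, 164, 179 and 166 in the Rosa26 replicates. It was 165, 147, 150, 168 and 145 in the HIRA replicates. At 6 months it was 159, 151, 221, 198 and 170 in the controls and 155, 161, 181, 202 and 141 in the HIRA replicates. The groups overlapped at both times, and the controls at 6 months spread most. The log2 fold change was -0.11 ± 0.11 at 3 weeks (95% CI -0.34 to 0.12; adjusted p = 0.866) and -0.10 ± 0.11 at 6 months (95% CI -0.33 to 0.13; adjusted p = 0.740). Without HIRA 6 months replicate 5 it was -0.04 ± 0.11 at 6 months (adjusted p = 0.905), and on FPKM 0.07 ± 0.12 (adjusted p = 0.801). Averaged over both times in all libraries, it was -0.11 (95% CI -0.27 to 0.06) and did not pass (adjusted p = 0.539). This interval lies below that of H3f3a, but the difference between the genes was not itself tested.

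The sum of both H3.3 genes in CPM differed between the arms by less than the SD within groups in all libraries. It was 232 ± 13.5 and 239 ± 12.1 (SD, n = 5) in the Rosa26 and HIRA groups at 3 weeks and 242 ± 28.9 and 246 ± 23.7 at 6 months. In FPKM, in which H3f3a weighs more, the sum was 202 ± 9.36 and 234 ± 13.1 at 3 weeks and 205 ± 17.0 and 232 ± 33.6 at 6 months. Without replicate 5 the HIRA group at 6 months stood at 254 ± 17.2 CPM and 245 ± 16.2 FPKM (SD, n = 4). These sums are descriptions without a test.

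Per kilobase of exon, the H3f3a share of the H3.3 transcripts was 24.6% ± 2.94 in the Rosa26 group and 31.4% ± 1.36 in the HIRA group at 3 weeks (SD, n = 5). At 6 months it was 23.0% ± 2.94 and 28.5% ± 3.64. The ranges overlapped at both times, at 3 weeks by 1 library of each group (21.6% to 29.5% against 29.4% to 33.0%) and at 6 months at 18.5% to 25.7% against 23.9% to 32.6%. From FPKM the shares were 58.1% ± 3.10 and 64.8% ± 1.65 at 3 weeks and 53.8% ± 4.74 and 60.0% ± 2.72 at 6 months, and the ranges overlapped at both times (54.8% to 63.0% against 61.9% to 66.0%, and 46.2% to 58.4% against 57.3% to 64.0%). Without replicate 5 the HIRA share at 6 months was 28.0% ± 4.01 per kilobase and 59.6% ± 2.98 from FPKM (SD, n = 4). The mean share was thus higher in the HIRA arm in both units, but which of the genes held the larger share depended on the unit.

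**Figure D3:**
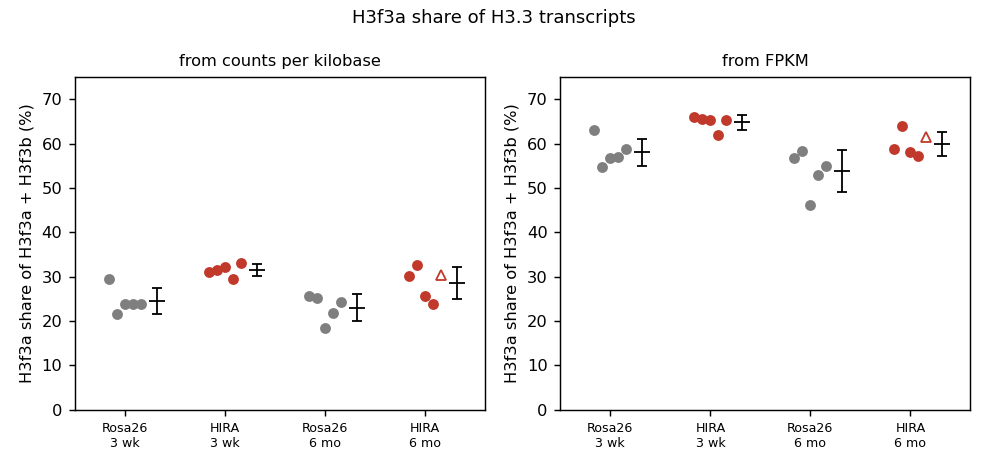
H3f3a as a percentage of H3f3a plus H3f3b (vertical axes, from 0) by group, from counts per kilobase on the left and from FPKM on the right; points are libraries, the open triangle is HIRA 6 months replicate 5, and bars are the mean ± SD of 5 libraries. In both panels the HIRA means, such as 31.4% and 64.8% at 3 weeks, lie above the Rosa26 means, and the level of the share differs between the units.

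The units were compared for each gene. Over the 20 libraries the mean level was 20.5 CPM per kilobase for H3f3a and 56.3 for H3f3b, while the mean FPKM was 129 and 88.9. FPKM exceeded CPM per kilobase by 6.30 times for H3f3a, 4.22 for Hira and 3.90 for Asf1a, and by 1.41 to 1.82 times for the other 4 genes. Processed copies of the H3.3 genes lie elsewhere in the genome. H3f3c, one of them, held 63 counts in all libraries but 12.78 to 28.98 FPKM, and H3f3a-ps2 held 20 counts but 5.897 to 11.479 FPKM. H3f3a-ps1 went the other way, with 246 counts but 0.066 to 0.773 FPKM. The antisense gene H3f3aos had 140 counts, 0.45% of those of H3f3a. The part of the copies and of overlapping models in the H3f3a result was not tested.

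Per length, the order of the genes from counts was H3f3b, H3f3a, Ubn1, Cabin1, Asf1a, Hira and Ubn2, with means of 56.3, 20.5, 3.61, 1.83, 1.49, 0.944 and 0.851 CPM per kilobase. Pooled over both arms, Hira and Ubn2, at 0.944 ± 0.173 and 0.851 ± 0.0763 (SD over 20 libraries), did not differ beyond their spread. This pool mixes the arms, and the HIRA guide targets Hira. With the Rosa26 guide, Hira and Ubn2 stood at 1.12 ± 0.162 and 0.886 ± 0.03 at 3 weeks and 0.962 ± 0.146 and 0.775 ± 0.0255 at 6 months. With the HIRA guide they stood at 0.799 ± 0.137 and 0.89 ± 0.0835, and then at 0.898 ± 0.0924 and 0.853 ± 0.0922 (SD, n = 5). In FPKM the order was H3f3a, H3f3b, Asf1a, Ubn1, Hira, Cabin1 and Ubn2, and Asf1a and Ubn1, at 5.81 ± 0.925 and 5.10 ± 0.828, did not differ beyond their spread. Nor did Hira and Cabin1 when pooled over both arms, at 3.98 ± 0.976 and 3.32 ± 0.62 FPKM. At 3 weeks Hira and Cabin1 stood at 4.76 ± 0.789 and 3.0 ± 0.471 FPKM with the Rosa26 guide. With the HIRA guide they stood at 2.88 ± 0.384 and 3.21 ± 0.595. In both units the H3.3 genes stood well above the chaperone genes.

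**Figure D4:**
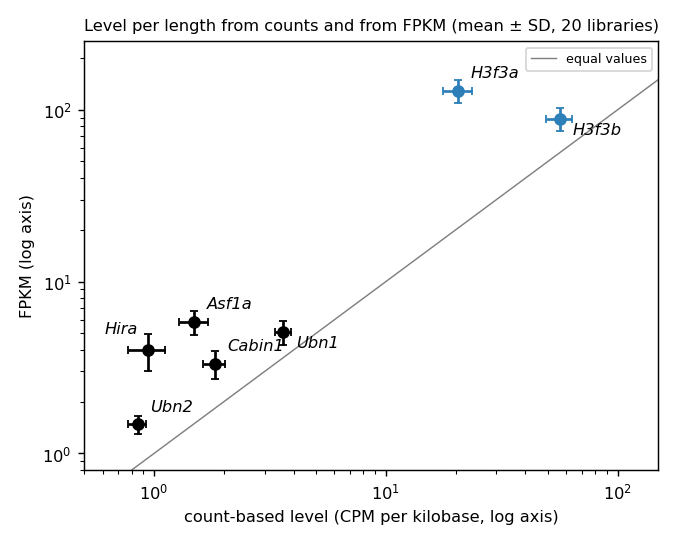
Mean level of each gene over the 20 libraries in CPM per kilobase of exon (horizontal log axis) and in FPKM (vertical log axis), with SDs as bars; the line marks equal values and blue marks the H3.3 genes. H3f3a lies left of H3f3b, at 20.5 against 56.3, but above it, at 129 against 88.9.

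Time after injection was compared within each arm. All mice were injected at the same age, so the later livers were also of older mice. Time after injection and age cannot be told apart here. With the Rosa26 guide, edgeR called 0 of 7 members between 3 weeks and 6 months, where 0.324% of all genes were called, and 1 member, Ubn2, had an unadjusted p under 0.05, against 12.8% of all genes. Ubn2 stood at a log2 CPM of 4.25 ± 0.05 at 3 weeks and 4.06 ± 0.05 at 6 months (SD, n = 5), with a log2 fold change of -0.19 ± 0.08 and an adjusted p of 0.298 that did not pass. Its groups did not overlap, which was so for 3.5% of all genes. With the HIRA guide, 0 of 7 members were called, against 0.0656% of all genes, 0 had an unadjusted p under 0.05, against 8.95%, and 0 had groups that did not overlap, against 1.47%. Without HIRA 6 months replicate 5, 1 of 7 members, Cabin1, had an unadjusted p under 0.05, against 10.1% of all genes, and 0 had groups that did not overlap, against 3.34%. Cabin1 then stood at 0.24 ± 0.10 (log2) over time, and the adjusted p of 0.402 in edgeR did not pass. The guide effect changed with time in 0 of 7 members, where 0% of all genes (0 of 22867) were called and 1514 had an unadjusted p under 0.05. DESeq2 and limma-voom also called 0 members in these 3 comparisons. Of all genes, DESeq2 called 2.21% over time with the Rosa26 guide, 0.625% with the HIRA guide and 0% for the change of guide effect. The shares in limma-voom were 0.254%, 0.0306% and 0%.

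Cell type markers were set beside the H3f3a result. None of the markers of hepatocytes (7), cholangiocytes (4), stellate cells (4), Kupffer cells (4), endothelial cells (4) or lymphocytes (6) was called by edgeR at either time, with 4 of 29 at an unadjusted p under 0.05 at 3 weeks and 3 at 6 months, against 8.87% and 15.5% of all genes. DESeq2 and limma-voom also called none at either time, against 0.984% and 3.91% of all genes in DESeq2 and 0.101% and 1.3% in limma-voom. On average over both times edgeR and limma-voom called none. DESeq2 there called 1 hepatocyte marker higher and 1 lower and 1 lymphocyte marker higher, against 5.55% of all genes. Without HIRA 6 months replicate 5, edgeR called 1 lymphocyte marker higher, against 3.92%. In edgeR Alb averaged 0.31 and Glul -0.29 (adjusted p = 0.172 and 0.121). The summed hepatocyte markers, which Alb dominates, took 10.2% to 15.9% of counts in the Rosa26 group and 14.0% to 16.8% in the HIRA group at 3 weeks, and 10.6% to 12.8% and 12.7% to 15.3% at 6 months. The median log2 fold change of the list was -0.13 at 3 weeks, with Alb at 0.28, Apoa1 at -0.46, Glul at -0.32 and Serpina1a at -0.28, and 0.17 at 6 months. At 3 weeks 3 of 7 hepatocyte markers, the last 3 of these, had an unadjusted p under 0.05.

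The markers of the other cells overlapped between the arms at both times in their sums. Stellate markers ranged from 155 to 275 CPM in the Rosa26 group and 160 to 229 CPM in the HIRA group at 3 weeks, and from 115 to 240 CPM and 128 to 593 CPM at 6 months. Kupffer markers ranged from 277 to 413 CPM and 333 to 525 CPM, and then from 194 to 1532 CPM and 130 to 920 CPM. Cholangiocyte markers ranged from 71.9 to 119 CPM and 65.6 to 122 CPM, and then from 58.2 to 118 CPM and 42.2 to 169 CPM. Without HIRA 6 months replicate 5 the lowest HIRA libraries at 6 months stood at 225 CPM for stellate, 322 CPM for Kupffer and 80.0 CPM for cholangiocyte markers. Endothelial markers ranged from 125 to 165 CPM and 136 to 163 CPM at 3 weeks, and from 77.8 to 143 CPM and 84.0 to 152 CPM at 6 months (from 127 CPM in the HIRA group without replicate 5). Lymphocyte markers ranged from 11.5 to 23.4 CPM and 18.3 to 25.5 CPM, and then from 10.1 to 61.3 CPM and 9.29 to 55.0 CPM (from 17.1 CPM without replicate 5). The median log2 fold changes at 3 weeks and 6 months were 0.06 and 0.58 for stellate, 0.09 and 0.30 for endothelial, 0.29 and 0.39 for lymphocyte, -0.01 and 0.18 for cholangiocyte and 0.01 and -0.20 for Kupffer markers. At 6 months the log2 fold changes of all 4 stellate (0.34 to 0.89), all 4 endothelial (0.25 to 0.34) and all 6 lymphocyte markers (0.07 to 0.51) were above 0, beside 0.32 for H3f3a. At 3 weeks all markers of these lists were above 0 too (0.04 to 0.22, 0.04 to 0.26 and 0.03 to 0.85), beside 0.38 for H3f3a. None of these markers passed at either time. The highest stellate value was that of Col1a1, whose log2 CPM had an SD of 1.4 in the HIRA group at 6 months. The lymphocyte marker Cd79a did not overlap between the arms at 3 weeks, at 0.85 ± 0.31 (adjusted p = 0.379). Nor did the hepatocyte marker Glul, at -0.32 ± 0.14 (adjusted p = 0.492). Such a separation was seen in 2.69% of all genes. The part of these shifts in the H3f3a result was not tested.

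Other routes by which H3.3 reaches chromatin were described from a list of 7 genes. They include Daxx and Atrx, the chaperone and remodeler that serve heterochromatin, and the remodelers Chd1, Chd2 and Ep400. At 3 weeks 0 of 7 were called, against 0.197% of all genes, with 2 at an unadjusted p under 0.05, against 8.87%, and DESeq2 called 1, Chd2, against 0.984%. At 6 months 1 of 7 was called higher and 0 lower, against 1.31% of all genes in either direction. The same counts held for the average, against 2.85%, the gene being Chd1, which encodes a remodeler of transcribed chromatin. Chd1 log2 CPM was 4.09 ± 0.06 with the Rosa26 guide and 4.44 ± 0.10 with the HIRA guide at 6 months, without overlap. Its guide effect was 0.36 ± 0.07 (log2) at 6 months (95% CI 0.21 to 0.51; adjusted p = 0.0204) and 0.19 ± 0.07 at 3 weeks (adjusted p = 0.411), and 0.27 ± 0.05 on average (adjusted p = 0.00574). At 6 months Chd1 was no longer called without Rosa26 replicate 1 or 4 (adjusted p = 0.0512 and 0.0661) or with the 6-month groups alone (0.104), nor on log2(FPKM + 1), where it stood at 0.24 (adjusted p = 0.122). The fit of the 6-month groups alone called 0 of 20832 genes.

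Chd2, another remodeler, did not pass in edgeR at either time. Its log2 CPM was 4.78 ± 0.11 and 5.15 ± 0.16 at 3 weeks, without overlap, and 5.06 ± 0.17 and 5.05 ± 0.10 at 6 months. The log2 fold change of 0.37 ± 0.09 at 3 weeks had an adjusted p of 0.0929, which did not pass, and that at 6 months was -0.01 ± 0.09. The difference between the times, -0.39, had an unadjusted p of 0.00617 and an adjusted p of 0.685. Daxx had log2 fold changes of -0.05 at 3 weeks and 0.21 at 6 months (adjusted p = 0.939 and 0.241), and Atrx of 0.07 and 0.05 (adjusted p = 0.899 and 0.820). The median over the list was 0.07 at 3 weeks and 0.13 at 6 months.

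**Figure D5:**
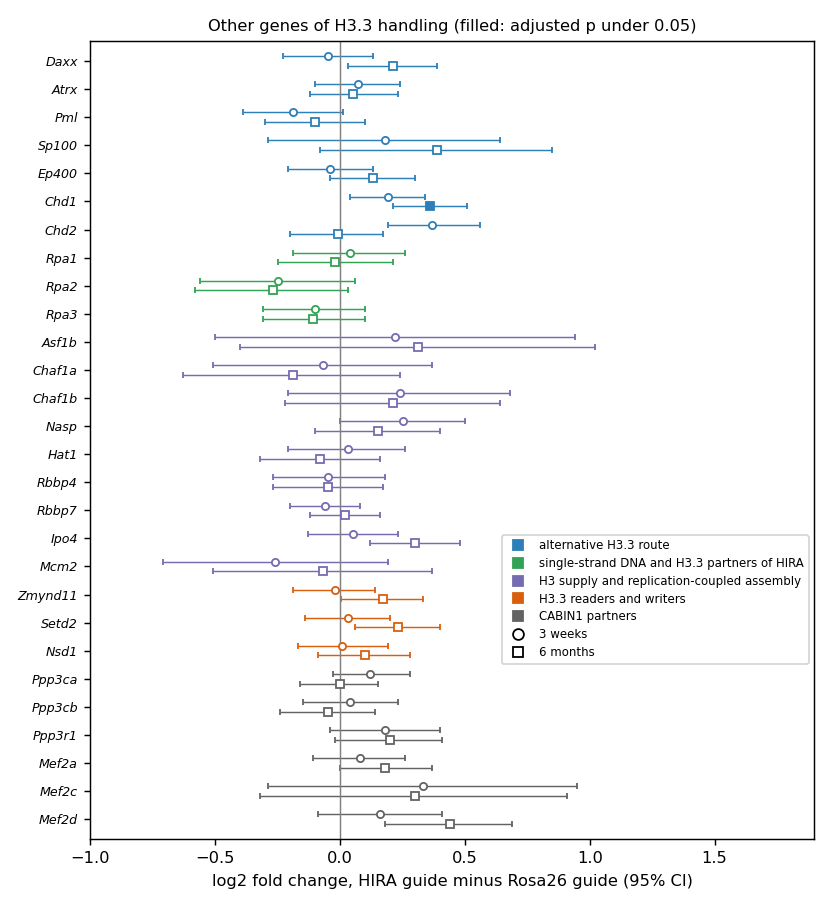
Log2 fold change of the HIRA guide against the Rosa26 guide (horizontal axis) with its 95% CI for 28 genes that handle H3 or bind members, at 3 weeks (circles) and 6 months (squares), coloured by list; filled symbols passed an adjusted p of 0.05 in edgeR. The one filled symbol is Chd1 at 6 months, at 0.36.

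The remaining lists gave no call in edgeR at either time. The subunits Rpa1, Rpa2 and Rpa3 of the single-strand DNA binding protein RPA, which binds HIRA, had a median log2 fold change of -0.10 at 3 weeks and -0.11 at 6 months. The 9 genes that supply H3 or assemble it behind replication forks, among them Asf1b, Chaf1a, Chaf1b and Nasp, had medians of 0.03 and 0.02. Ipo4, an importin that carries H3 with H4 into the nucleus, stood at 0.30 ± 0.08 at 6 months (adjusted p = 0.0833). The readers and writers Zmynd11, Setd2 and Nsd1 had medians of 0.01 and 0.17. The 6 partners of CABIN1, genes of calcineurin and of the MEF2 transcription factors, had medians of 0.14 and 0.19, with Mef2d at 0.44 ± 0.12 at 6 months (adjusted p = 0.0799). Of these 21 genes, 0 had an unadjusted p under 0.05 at 3 weeks, against 8.87% of all genes, and 4 at 6 months, against 15.5%. DESeq2 called 0 and 2, against 0.984% and 3.91% of all genes.

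The clustered replication-dependent H3 genes were barely present, and most of their transcripts lack the poly(A) tail by which these libraries were made. The 12 genes of the list summed to 4 to 32 counts per library, 2 had no count in any library, and 7 passed the filter. EdgeR, DESeq2 and limma-voom called 0 of 7 at each time, and 1 had an unadjusted p under 0.05 in edgeR at each time. Of 6 proliferation genes, among them Mki67 and Top2a, 0 were called and 0 had an unadjusted p under 0.05. Of all genes, edgeR called 0.197% and 1.31% at 3 weeks and 6 months, DESeq2 0.984% and 3.91% and limma-voom 0.101% and 1.3%, and 8.87% and 15.5% had an unadjusted p under 0.05 in edgeR. The intervals of the clustered genes were wide, such as -1.28 to 0.45 for Hist2h3c2 and -0.13 to 3.83 for Hist1h3a (95% CI of the log2 fold change at 3 weeks), and changes inside them were not detectable at this depth.

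The genes most like each member were found by Pearson's r of log2 CPM over the 20 libraries, among genes with a mean of at least 1 CPM. These values are descriptions, since the libraries share depth, RNA composition and the arms. Hira was most like Tspo (r = 0.83) and Lamtor1 (0.79). Ubn1 was most like Sbf1 (0.77) and Tor1aip1 (0.76), Ubn2 like Prpf4b (0.89) and Entr1 (0.86), and Cabin1 like Kctd18 (0.82) and Lrriq3 (0.75). Asf1a went with Smc5 (0.85) and Kif2a (0.83), and H3f3b with Tpm3 (0.85) and Taf1b (0.83). H3f3a was most like Pip5k1c (0.85) and Wdr54 (0.83). After the group means were removed these fell to 0.56 and 0.01 for H3f3a, but stayed at 0.70 to 0.85 for the genes nearest to the other members.

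Among the members themselves, deviations from the group means went together most for Cabin1 and H3f3b (r = 0.61, 20 libraries) and for Ubn2 and Asf1a (r = 0.50). They were most opposed for Hira and H3f3a (r = -0.50). Of the other 18 pairs, the values ran from -0.40 to 0.47. Hira stood at 0.14 with Ubn1, 0.03 with Ubn2, 0.06 with Cabin1 and 0.25 with Asf1a. These r are descriptions without a test.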

How the data were processed

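RNA-seq libraries of 20 mouse livers were grouped by the sample titles, 5 in each of 4 groups. Reads had been aligned by the authors to mm10, which is GRCm38, using STAR. They deposited a table of counts per gene, unnormalized whole numbers, and a table of FPKM values. The submitters' processing notes name STAR, HTSeq and Cufflinks, while the study's methods name HOMER for counting. Whether counting used the strand, and how reads shared by genes were treated, is not given in the sources used here. The labels call the mice female, whereas the study's text calls the mice of this experiment male in one place and female in another.

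Counts were tested in edgeR 4.0.16 by quasi-likelihood (glmQLFit, then glmQLFTest) after TMM scaling, in a single fit of all 20 libraries with a mean for each group. Genes with fewer than 10 counts in total were left out (22854 without a count and 9700 with 1 to 9), p-values were adjusted by Benjamini and Hochberg over the 22867 genes tested, and calls used an adjusted p under 0.05 without a fold threshold, unlike the study. Adjusted p-values are from this fit unless another tool is named. Log2 CPM used a prior count of 2, and the pseudocount on FPKM was 1, with blank FPKM cells of other genes set to 0. No member had a blank. Lengths are exon unions of GENCODE M21, which held 54673 of 55421 identifiers (98.7%). DESeq2 1.42.0, limma 3.58.1, R 4.3.3, Python 3.11.15, numpy 2.4.6, pandas 2.3.3 and matplotlib 3.10.9 were also used. The test was checked on simulated data.

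Depth was 19916430 to 24079736 counts per library, so members with few counts, such as Hira and Asf1a, carry more counting error than H3f3a and H3f3b. Alternatives were other tools and size factors, other filters, fits of the compared groups alone, FPKM, a replicate block and leaving out each library. FPKM without HIRA 6 months replicate 5 was added after seeing the data. Named genes are the members, genes of fixed pathway and marker lists, genes that overlap members or copy them, and the 2 named genes most like each member. The members and lists were chosen with earlier results of these data known. Xist and the Y-linked genes were named after their values were seen. Promoters are from RefSeq (GRCm38.p6), in which all 7 members matched. The guide sequences are not printed here.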

Additional observations from a re-analysis of the deposited data

How the results depend on the processing

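Averaged over both times, H3f3a was called under every alternative run. At single times H3f3a was no longer called on log2(FPKM + 1) with limma (log2 fold change 0.37 and adjusted p = 0.0565 at 3 weeks, 0.32 and 0.0506 at 6 months) or, at 6 months, with its groups alone (0.32). In these fits 0 members were called. Of all genes, the FPKM fit called 0.16% at 3 weeks and 0.903% at 6 months, and the 6-month groups alone called 0 of 20832. Leaving out a library gave 0.36 to 0.42 at 3 weeks and 0.26 to 0.35 at 6 months, with 0 to 1 members called at each time. These fits called 0.0176% to 0.454% of all genes at 3 weeks and 0.216% to 1.74% at 6 months. DESeq2 called 2 members on average, adding Hira (-0.30), against 5.55% of all genes. FPKM turned Hira at 6 months (0.03), Ubn1 and Cabin1 at 3 weeks (-0.01 and 0.07), Cabin1 at 6 months (-0.15) and the change of guide effect of Cabin1 (-0.22) and Asf1a (0.03), and none of these passed. The cause was not tested. On FPKM without HIRA 6 months replicate 5, chosen after seeing the data, H3f3a passed at both times and Hira passed at 3 weeks (-0.57) and on average (-0.32), so 2 members were called in each of these, against 0.365% and 3.11% of all genes. Values turned for H3f3b at 6 months (0.07) and on average (0.02), Ubn1 (-0.01) and Cabin1 (0.07) at 3 weeks, Cabin1 at 6 months (-0.09) and the change of guide effect of Cabin1 (-0.16), Asf1a (0.05) and H3f3a (0.04), and none of these passed. Other reversals were of values near 0. The change of guide effect of Asf1a was 0.008 with limma-voom and 0.007 with the replicate block, that of H3f3b was -0.0034 with DESeq2 and with RLE size factors, and Ubn1 over time with the HIRA guide was -0.0013, -0.0014, -0.008 and -0.01 with DESeq2, RLE, the filter of 1 CPM and its groups alone. Leaving out a library also turned values near 0, over ranges of -0.05 to 0.04 (Ubn1) and -0.03 to 0.05 (Ubn2) at 3 weeks, -0.0028 to 0.10 (Cabin1) at 6 months, -0.05 to 0.01 (Cabin1) on average, -0.07 to 0.08 (Asf1a) and -0.06 to 0.10 (H3f3b) for the change of guide effect, -0.0023 to 0.10 (Cabin1) and -0.06 to 0.003 (H3f3a) over time with the Rosa26 guide and -0.03 to 0.04 (Ubn1) with the HIRA guide.

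The H3f3a share moved to 58.1%, 64.8%, 53.8% and 60.0% on FPKM in the Rosa26 and HIRA groups at 3 weeks and then 6 months, and to 27.7%, 35.0% and 26.1% in the first 3 of these on counts without length. Deviations from group means moved r to 0.25 (Hira with Asf1a), -0.24 (Ubn1 with Ubn2), -0.09 and 0.47 (Ubn1 with H3f3a and H3f3b), -0.07 (Ubn2 with H3f3a), 0.08 (Cabin1 with Asf1a) and 0.04 (Asf1a with H3f3a).

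Same-numbered libraries of different groups deviated with r from -0.309 to 0.335 (median 0.0793, 30 pairs), and differently numbered ones with -0.451 to 0.54 (median -0.0355, 120 pairs). Not every same-numbered pair was positive, 5 of 20 libraries correlated best with a library of their own number, and the numbers were not taken to pair the samples. With the replicate block, H3f3a stood at 0.38 and 0.32 (adjusted p = 0.0397 and 0.0396), and no call of a member changed. The block gave 54, 324 and 670 calls of all genes at 3 weeks, at 6 months and on average, and 151 and 37 over time with the Rosa26 and HIRA guides. Counts of all genes called at 3 weeks were 45 in edgeR, 225 in DESeq2, 23 in limma-voom, 90 with the filter of 1 CPM and 149 with the groups alone, and at 6 months 299, 895, 297, 517 and 0. On average 651 genes were called in edgeR and 1268 in DESeq2, and over time 74 and 506 with the Rosa26 guide and 15 and 143 with the HIRA guide. Leaving out a library gave 4 (HIRA 3 weeks replicate 4 or 5) to 103 calls at 3 weeks, 49 (Rosa26 6 months replicate 4) to 395 at 6 months, 411 (Rosa26 6 months replicate 4) to 890 on average, 1 (Rosa26 3 weeks replicate 1) to 213 over time with the Rosa26 guide and 5 to 31 with the HIRA guide. The highest counts came without HIRA 6 months replicate 5, except over time with the HIRA guide, where the highest came without HIRA 6 months replicate 3.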
